A study of Homo sapiens with 3 samples.

Results

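Opposite-strand gene pairs each made of a splicing factor gene and the gene lying across from it were examined in HEK293, an established human cell line made from embryonic kidney cells by transformation with sheared adenovirus DNA. The pairs were MFSD11 with SRSF2, GNRHR2 with RBM8A, CBX3 with HNRNPA2B1 and COX20 with HNRNPU, which makes 4 pairs and 8 genes of the 26485 gene names in the deposited tables. They were chosen with their counts known, so the levels and the ratios within pairs are given as a description, with no test. The series holds 3 libraries of 1 untreated condition (n = 3, replicates 1 to 3), grown in DMEM with fetal calf serum. Per the labels' protocols, ribosomal RNA was removed from TRIzol total RNA before library preparation with a directional kit, while the titles name mRNA. Nothing in the labels tells whether the replicates were separate cultures, and p-values therefore measure only the spread between these 3 samples, which may be technical. The adenovirus genes that define the line were not analysed here.

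Pre-mRNA splicing joins exons in the nucleus, and the 4 splicing factor genes act at different points of it. SRSF2 (also called SC35) is an SR protein, a class that binds exonic enhancers and recruits the spliceosome. RBM8A (Y14) forms the exon junction complex with MAGOH, EIF4A3 and CASC3, a mark left on spliced mRNA. HNRNPA2B1 and HNRNPU are heterogeneous nuclear ribonucleoproteins, which coat nascent transcripts, and HNRNPU (SAF-A) also binds chromatin and the nuclear scaffold. The partners have unrelated roles. MFSD11 is a predicted transporter of the major facilitator superfamily, GNRHR2 is a pseudogene of a second gonadotropin-releasing hormone receptor, CBX3 is the heterochromatin protein HP1 gamma and COX20 is an assembly factor of cytochrome c oxidase.

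All 4 pairs overlap in exons on opposite strands in GENCODE release 29 (GRCh38), in 3 different arrangements. MFSD11 (plus strand, chromosome 17 from 76735865 to 76781449) and SRSF2 (minus strand, 76734115 to 76737374) overlap at their 5′ ends over 1106 exonic bases, which is 36.7% of the merged exons of SRSF2. Of these bases 637 are coding in SRSF2 and none is coding in MFSD11. GNRHR2 (plus strand, chromosome 1 from 145919013 to 145925341) lies wholly within RBM8A (minus strand, 145917714 to 145927678), with 858 exonic bases in common and none coding in either gene. CBX3 (plus strand, chromosome 7 from 26201162 to 26213356) and HNRNPA2B1 (minus strand, 26173057 to 26201529) meet at their 5′ ends and share 368 bases, all noncoding and only 3.97% of the HNRNPA2B1 exons. COX20 (plus strand, chromosome 1 from 244835322 to 244845057) and HNRNPU (minus strand, 244840638 to 244864560) run into each other at their 3′ ends over 3502 bases, which cover 72.0% of the COX20 exons and 15.6% of the HNRNPU exons.

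**Figure D1:**
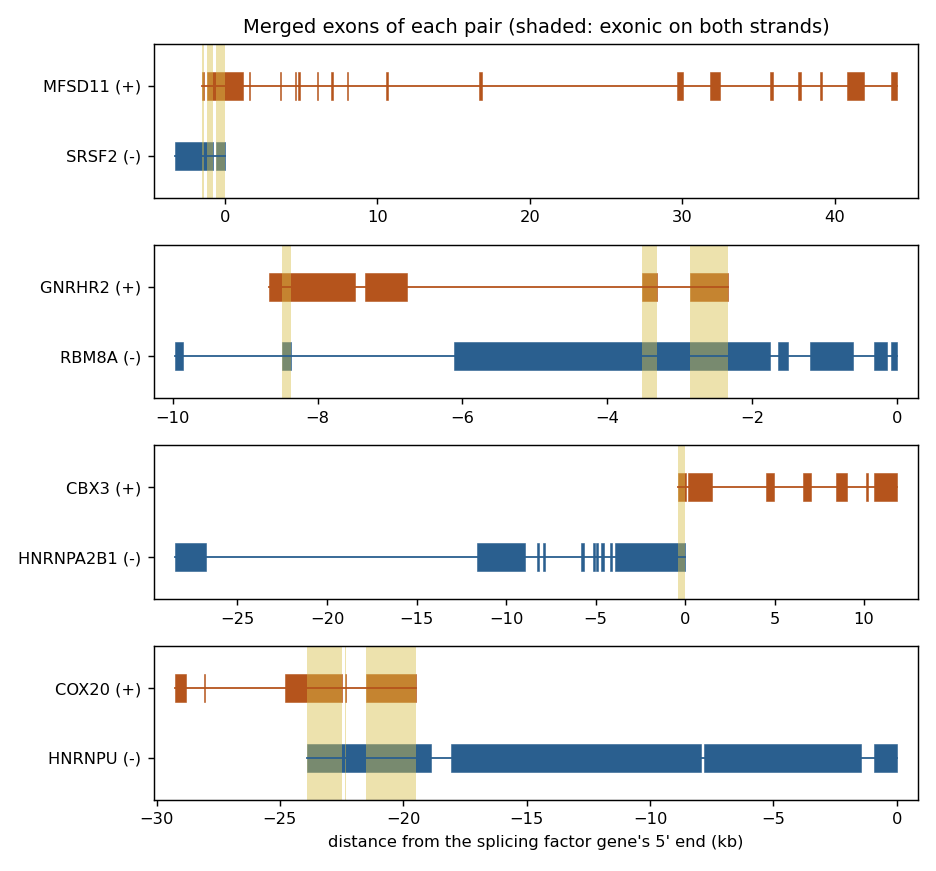
Merged exons (boxes) of the partner (upper row, plus strand) and of the splicing factor gene (lower row, minus strand) of each pair, placed by distance in kb from the 5′ end of the splicing factor gene, with shading where both strands are exonic. The shaded length is longest in COX20 and HNRNPU (3502 bases) and shortest in CBX3 and HNRNPA2B1 (368 bases).

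How far the overlap holds depended on the transcripts admitted. All 5 COX20 transcripts but 5 of 31 HNRNPU transcripts reach into the shared bases, and for CBX3 and HNRNPA2B1 the figures are 1 of 8 and 2 of 9 transcripts. For MFSD11 and SRSF2 they are 4 of 20 and 10 of 11, and for GNRHR2 and RBM8A 5 of 5 and 2 of 9. In the RefSeq gene table (GRCh38.p14), the gene extents of MFSD11 and SRSF2 overlap by 778 bases and those of GNRHR2 and RBM8A by 3786 bases. COX20 and HNRNPU are 5233 bases apart in that table, and CBX3 and HNRNPA2B1 are 696 bases apart. The sources used here do not name the annotation behind the deposited counts, so which of these overlaps the counting saw was not tested.

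The sequence shared by MFSD11 and SRSF2, by CBX3 and HNRNPA2B1 and by COX20 and HNRNPU is shown as the 30 bases at the middle of the longest exonic block of each pair, read from a transcript of each gene in GENCODE release 29, because a read from such a block can be told apart only by its strand. The lines of a pair are reverse complements of each other, at chr17:76737071-76737100 (coding in SRSF2), chr7:26201330-26201359 and chr1:244844034-244844063 on GRCh38. All are printed 5′ to 3′ on the strand of the gene named.
MFSD11 (plus strand): cagcgtgtcgggcgaggtgcggtaggtcag
SRSF2 (minus strand): ctgacctaccgcacctcgcccgacacgctg
CBX3 (plus strand): gtggtcccaaaggggtactagtttttaagc
HNRNPA2B1 (minus strand): gcttaaaaactagtacccctttgggaccac
COX20 (plus strand): acacaagctagatgcttaagaaatgcttaa
HNRNPU (minus strand): ttaagcatttcttaagcatctagcttgtgt

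The libraries were shallow at the level of genes. Gene-assigned totals ranged from 289241 to 483114 counts, or 1.76% to 2.48% of all records, so that 1 count was worth 2.29 to 3.30 CPM (counts per 1000000 of the TMM effective library size). Records in no annotated feature made up 90.6% to 91.5%. Reads that the counter set aside as ambiguous between genes numbered 4207, 3564 and 3010 in replicates 1, 2 and 3. The strand option of the counter is not named in the labels, so a count under either name of a pair is uncertain as a measure of that gene, and the part that strand played in the values below was not tested. As in any bulk sample, fewer cells with a transcript and less of it per cell cannot be told apart.

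In 3 of the 4 pairs the partner held nearly all counts and the splicing factor gene few. MFSD11, GNRHR2 and COX20 together received 4711, 4803 and 3374 counts in replicates 1, 2 and 3, which is 1.10% ± 0.0935 (SD, n = 3) of what all gene names received. The 4 splicing factor genes together received 75, 57 and 93 counts, or 0.0207% ± 0.0104 (SD, n = 3). By mean CPM, COX20 ranked 4th, MFSD11 ranked 19th and GNRHR2 ranked 67th of all names, against rank 1584 for SRSF2, 1587 for HNRNPU, 3606 for HNRNPA2B1 and 4908 for RBM8A. CBX3, the remaining partner, stood at rank 5049.

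**Figure D2:**
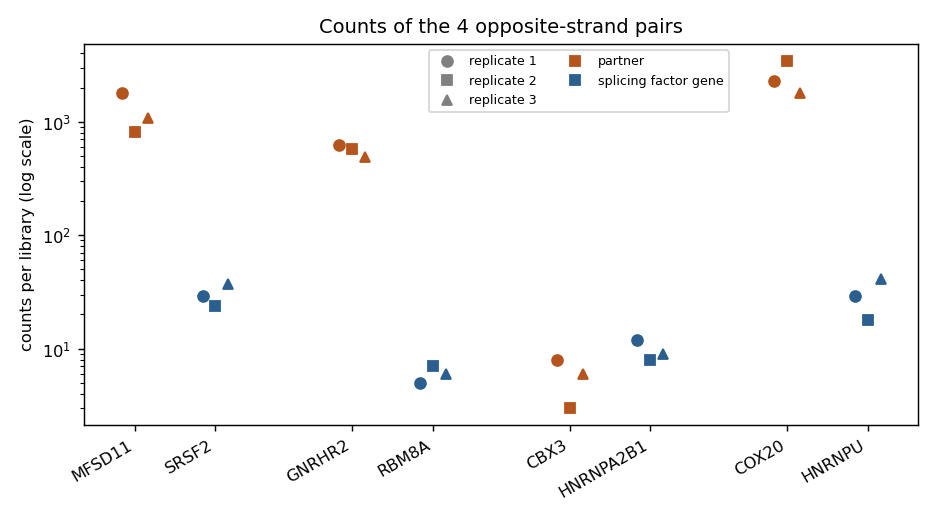
Deposited counts per library (log scale) of the 8 genes, each partner left of its splicing factor gene, with 1 symbol per replicate. COX20 (1806 to 3410 counts), MFSD11 (818 to 1807) and GNRHR2 (493 to 619) lie above their splicing factor genes in every library, while CBX3 (3 to 8) lies below HNRNPA2B1 (8 to 12).

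MFSD11 and SRSF2 showed this order in each library. MFSD11 had 1807, 818 and 1075 counts in replicates 1, 2 and 3, against 29, 24 and 37 counts for SRSF2. The lowest MFSD11 value lay far above the highest SRSF2 value. Nothing is read from this steady order, since the pair was chosen with its counts known. Such an order was also common: 1 gene was the higher in every library in 93.5% of the 1322 opposite-strand pairs described below. MFSD11 took 98.4% of the pair's counts in replicate 1 (95% Wilson interval 97.7% to 98.9%), 97.1% in replicate 2 (95.8% to 98.1%) and 96.7% in replicate 3 (95.4% to 97.6%). These intervals cover counting error only. The log2 ratio of MFSD11 to SRSF2 was 5.28 ± 0.58 (SD, n = 3, prior of 0.5 counts). Per kilobase of merged exon, the levels were 483.7 ± 177 CPM for MFSD11 and 26.9 ± 11.8 CPM for SRSF2 (SD, n = 3 each), and the log2 ratio was 4.15 on that scale. MIR636, a microRNA gene inside SRSF2 whose 99 bases are also exonic in MFSD11, had no count in any library. METTL23, a methyltransferase gene that ends 178 bases before the pair on the strand of MFSD11, had 44, 55 and 37 counts.

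GNRHR2, named as a pseudogene, outnumbered RBM8A in each library. GNRHR2 received 619, 575 and 493 counts and RBM8A received 5, 7 and 6. The partner exceeded the exon junction gene 124-fold in replicate 1 and by 82.1-fold and 82.2-fold in replicates 2 and 3. GNRHR2 held 99.2%, 98.8% and 98.8% of the pair's counts in replicates 1, 2 and 3, with Wilson intervals that together ran from 97.4% to 99.7%. The log2 ratio was 6.44 ± 0.32 (SD, n = 3), and 7.59 per kilobase of merged exon. The mean level was 1455 ± 154 CPM (SD, n = 3) for GNRHR2, while RBM8A stood at 15.8 ± 4.18 CPM (SD, n = 3). LIX1L, a neighbouring gene on the strand of RBM8A, had 32, 33 and 25 counts.

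COX20 and HNRNPU had the widest spread of ratios between libraries among the 4 pairs. COX20 had 2285, 3410 and 1806 counts and HNRNPU had 29, 18 and 41, in replicates 1, 2 and 3. COX20 was highest and HNRNPU lowest in replicate 2, so the partner exceeded HNRNPU 189-fold there, against 78.8-fold in replicate 1 and 44.0-fold in replicate 3. The share of COX20 was 98.7% (Wilson interval 98.2% to 99.1%), 99.5% (99.2% to 99.7%) and 97.8% (97.0% to 98.4%) in replicates 1, 2 and 3, with intervals for counting error only. The log2 ratio of COX20 to HNRNPU was 6.42 ± 1.05 (SD, n = 3). Per kilobase of merged exon it was 8.63, since GENCODE gives HNRNPU 22512 exonic bases against 4864 for COX20. HNRNPU-AS1, a name that the RefSeq table lists as a synonym of HNRNPU and that has no position of its own in the annotation used, received 456, 586 and 417 counts. It thus held more counts than HNRNPU and fewer than COX20 in every library.

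CBX3 and HNRNPA2B1 departed from this pattern, with few counts on both strands. CBX3 received 8, 3 and 6 counts and HNRNPA2B1 received 12, 8 and 9. HNRNPA2B1 was the higher in each library, but only by a few counts, and the share of CBX3 was 40.0%, 27.3% and 40.0% with Wilson intervals that together ran from 9.75% to 64.3%. The log2 ratio of CBX3 to HNRNPA2B1 was -0.79 ± 0.42 (SD, n = 3), and per kilobase of merged exon it changed sign, to 0.20. At this depth the order of the pair was not resolved. This pair has the shortest exonic overlap of the 4. NFE2L3, a stress-responsive transcription factor gene on the strand of CBX3 whose body overlaps the far end of HNRNPA2B1 with no exonic base in common, had 314, 512 and 199 counts, more than either gene of the pair in every library.

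The 5′ ends of CBX3 and HNRNPA2B1 face each other, and their promoters are shown because GENCODE places all 300 bases of the CBX3 window inside exons of both genes, while none of the HNRNPA2B1 window lies in the shared bases. The windows run from 250 bases before to 50 bases after the RefSeq start (GRCh38.p14), at chr7:26201193-26201492 on the plus strand and chr7:26200697-26200996 on the minus strand, and 196 bases separate them. Capitals mark matches on either strand to the GC box GGGCGG, to the CCAAT box spelled CCAAT, or to the ETS core spelled CCGGAAG, and no 2 of these matches overlap here.
CBX3: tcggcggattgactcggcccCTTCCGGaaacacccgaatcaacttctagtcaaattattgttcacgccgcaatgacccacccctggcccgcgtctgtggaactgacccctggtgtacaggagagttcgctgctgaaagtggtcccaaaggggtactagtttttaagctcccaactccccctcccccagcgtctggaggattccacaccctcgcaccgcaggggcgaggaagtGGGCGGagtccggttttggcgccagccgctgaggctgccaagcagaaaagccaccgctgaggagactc
HNRNPA2B1: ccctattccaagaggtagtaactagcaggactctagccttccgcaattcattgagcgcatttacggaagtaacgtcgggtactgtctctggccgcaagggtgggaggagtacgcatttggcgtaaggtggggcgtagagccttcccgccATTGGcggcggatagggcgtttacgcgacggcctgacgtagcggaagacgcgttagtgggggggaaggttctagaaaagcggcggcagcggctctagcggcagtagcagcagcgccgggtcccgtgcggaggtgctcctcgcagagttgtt
The CBX3 window holds 1 match to GGGCGG and 1 to CCGGAAG, and the HNRNPA2B1 window holds 1 match to CCAAT. Over all 35116 promoter windows of the RefSeq table, 45.0% hold GGGCGG, 10.3% hold CCGGAAG and 34.6% hold CCAAT. A match describes these letters and is not a binding site.

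Unequal pairs were common in the whole tables. Of 2861 opposite-strand pairs with a shared exonic base whose names are in the tables, 1322 had at least 10 counts in every library for at least 1 gene, and in 605 of these (45.8%) the same gene had at least 10 times the counts of the other in every library. MFSD11 with SRSF2, GNRHR2 with RBM8A and COX20 with HNRNPU all met this, and since the pairs were picked on such values nothing is read from that count. CBX3 and HNRNPA2B1 did not have 10 counts in every library and did not enter. In 1236 of the 1322 pairs (93.5%) the same gene was the higher in every library. The median ratio of the higher to the lower gene was 14.7-fold over the 1322 pairs. A smaller ratio than that of MFSD11 and SRSF2 was found in 71.0% of them, than that of COX20 and HNRNPU in 85.3% and than that of GNRHR2 and RBM8A in 85.6%. The overlap of COX20 and HNRNPU was longer than in 98.3% of these pairs, whose median was 312 bases.

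**Figure D3:**
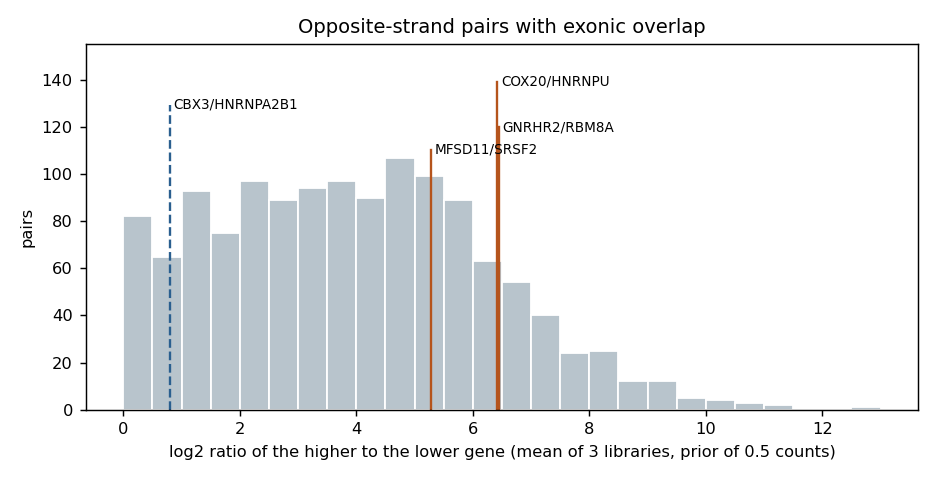
Number of opposite-strand pairs by the log2 ratio of the higher to the lower gene, averaged over 3 libraries, for the 1322 pairs with at least 10 counts in every library for at least 1 gene. Solid lines mark the 3 pairs with a high partner, at 5.28, 6.42 and 6.44, and the dashed line marks CBX3 and HNRNPA2B1 at 0.79, which did not enter the histogram.

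By arrangement, 206 of 434 pairs overlapping at their 5′ ends (47.5%), 120 of 210 nested pairs (57.1%) and 279 of 678 pairs overlapping at their 3′ ends (41.2%) differed at least 10-fold in every library. In GENCODE, MFSD11 with SRSF2, GNRHR2 with RBM8A and COX20 with HNRNPU thus represent each of these arrangements once. This does not hold for the RefSeq extents. There GNRHR2 starts outside RBM8A and overlaps it at the 3′ ends, and COX20 and HNRNPU lie 5233 bases apart.

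The order within pairs was also compared for every opposite-strand partner of 83 splicing genes, taken from lists of SR proteins, hnRNP proteins, the exon junction complex and the core spliceosome. Of these genes 20 had such a partner in the tables, and 11 pairs had enough counts. The partner was the higher in every library in 9 of the 11 pairs, the 3 described above among them, and so in 6 of the 8 others. Over all pairs taken in both orders, the partner was higher in every library in 46.7%. The pairs of RUFY2, MAP3K12, CCDC157 and PLEKHJ1 entered only through the partner's counts, and those of ACIN1 and SNRPD3 only through the splicing gene's. Their order was thus largely set by the count filter, and nothing is read from it. Among the others, only GATC with SRSF9 and PHYKPL with HNRNPAB had at least 10 counts in every library for both genes. The partner had at least 10 times the counts of the splicing gene in every library in 2 of the 8 others, RUFY2 with HNRNPH3 and PLEKHJ1 with SF3A2, against 22.9% of all pairs taken in both orders, which is a share near the background. With the order set aside, 3 of the 8 differed that far, against 45.8% of all pairs. GATC, a subunit of the mitochondrial glutamyl-tRNA amidotransferase, had 1102, 1053 and 915 counts against 133, 175 and 101 for SRSF9, an SR protein. RUFY2 had 207, 189 and 155 counts against 4, 17 and 4 for HNRNPH3, and MAP3K12, a neuronal stress kinase, had 50, 95 and 33 against 8, 0 and 0 for PCBP2, a poly(C)-binding protein. Both are pairs that overlap at their 3′ ends.

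The remaining pairs of this kind had smaller counts. CCDC157 had 41, 42 and 27 counts against 12, 2 and 3 for SF3A1, and PLEKHJ1 had 51, 26 and 20 against 2, 0 and 1 for SF3A2, both of them subunits of the U2 particle. PHYKPL had 41, 33 and 30 counts against 32, 18 and 13 for HNRNPAB. The order was the other way in 2 pairs. C14orf119 had 2, 2 and 1 counts against 126, 145 and 127 for ACIN1, a splicing cofactor bound to the exon junction complex, and GUCD1 had 5, 12 and 5 against 18, 21 and 15 for SNRPD3, a core protein of the spliceosomal particles. Both of these pairs entered only through the splicing gene's counts, so their order was largely set by the count filter and nothing is read from it.

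**Figure D4:**
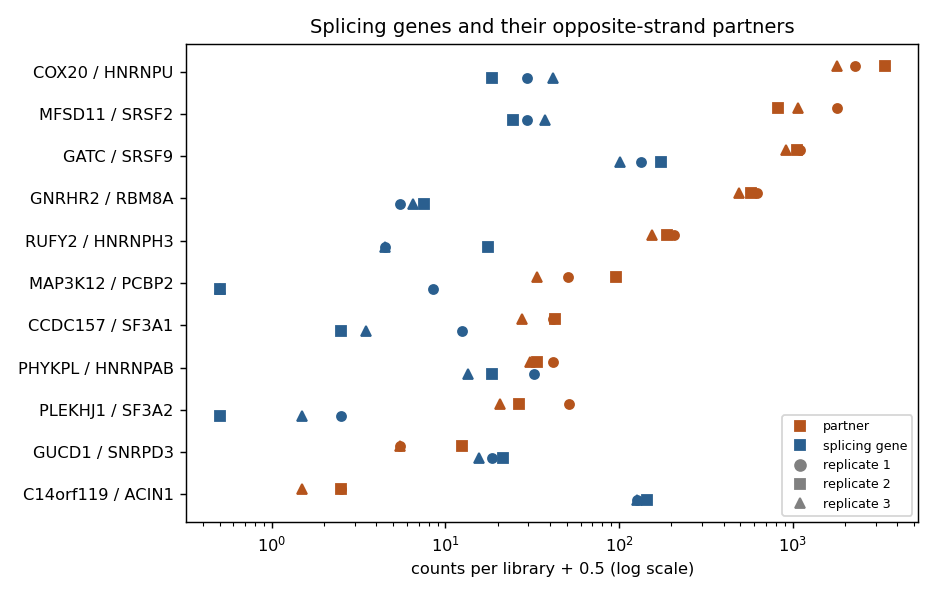
Counts per library plus 0.5 (log scale) of the partner (upper points) and of the splicing gene (lower points) in the 11 opposite-strand pairs of the splicing lists, ordered by the mean CPM of the partner, with 1 symbol per replicate. The partner lies to the right in 9 pairs and to the left in the pairs of SNRPD3 and ACIN1, and symbols with equal counts lie on top of each other.

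By CPM, SRSF2 and HNRNPU were among the 3 highest genes of their own families, while RBM8A and HNRNPA2B1 were not. Among the 14 SR protein genes, SRSF2 at 81.2 ± 35.7 CPM came after SRSF9 at 346.8 ± 51.1 CPM and SRSF1 at 95.4 ± 14.5 CPM (SD, n = 3 each). Among 26 hnRNP genes, HNRNPU at 81.0 ± 48.5 CPM followed HNRNPDL at 150.6 ± 56.4 CPM, and HNRNPA1 at 72.0 ± 2.47 CPM came next by mean (SD, n = 3 each). The order of HNRNPU and HNRNPA1 was not settled. HNRNPU had 29, 18 and 41 counts and HNRNPA1 had 32, 32 and 21, so HNRNPU was the higher only in replicate 3. HNRNPA0, HNRNPH2 and HNRNPUL2 had no count. By counting error alone this allows up to 6.86 to 9.89 CPM, the value of 3 counts in a library. It sets no limit on the level of these genes in the cells, since the annotation and strand option of the counting are not known. The exon junction list was led by ACIN1 at 346.9 ± 66.2 CPM, RNPS1 at 28.2 ± 28.9 CPM and PNN at 22.4 ± 10.7 CPM (SD, n = 3 each), with RBM8A at 15.8 CPM. The median mean CPM was 34.1 over the SR proteins, 12.2 over the hnRNP proteins, 13.2 over the exon junction complex and 6.07 over 30 core spliceosome genes, against 1.10 over all gene names. The core spliceosome genes were led by SF3B4 at 64.8 ± 22.0 CPM, SNRPD3 at 46.3 ± 4.52 CPM and U2AF2 at 31.2 ± 16.5 CPM (SD, n = 3 each), and EFTUD2, PRPF19 and PRPF31 were among the 6 with no count. Per kilobase of merged exon HNRNPU ranked 8th of the hnRNP genes, at 3.60 CPM. On that scale HNRNPDL had 27.5 CPM, HNRNPAB had 24.5 CPM, PCBP1 had 21.7 CPM and HNRNPA1 had 14.1 CPM. SRSF2 ranked 3rd of the SR protein genes per kilobase too.

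The partners with high counts stood far above their own relatives. They were chosen with their counts known, so nothing is read from this order. With the strand option not named, a count under these names is also uncertain as a measure of that gene. COX20 had 6345 ± 1362 CPM (SD, n = 3). The next highest of 19 assembly genes of cytochrome c oxidase were COX11, a copper insertion factor, at 759.9 ± 146 CPM and COX15, a heme A synthase, at 586.3 ± 217 CPM (SD, n = 3 each). COA3, COX17 and PET117 were among 5 with no count, and the median of this list was 6.10 CPM. MFSD11 had 3186 ± 1164 CPM, while MFSD3 at 59.7 ± 12.5 CPM and MFSD6 at 50.03 ± 44.8 CPM followed among the 14 MFSD and UNC93 genes in the tables (SD, n = 3 each). MFSD1, MFSD12 and MFSD2A were among 6 of these with no count. GNRHR2 had 1455 CPM, against 238.0 ± 153 CPM for GNRHR, the receptor gene that is intact in humans, 42.8 ± 14.1 CPM for the hormone gene GNRH1 (SD, n = 3 each) and no count for GNRH2. Per kilobase of merged exon, COX20, MFSD11 and GNRHR2 were again the highest of their lists. CBX3 averaged 15.0 ± 7.03 CPM, against 68.5 ± 11.0 CPM for CBX1 and 23.5 ± 10.6 CPM for CBX5 (SD, n = 3 each). Its order with CBX5 was not settled: per kilobase CBX3 had 3.23 CPM and CBX5 had 1.56 CPM, and in replicate 3 CBX3 had 6 counts and CBX5 had 4.

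The spread between libraries was also tested. The pairs were not named by their spread, but their counts in each library were known when they were chosen, so these tests are not independent of the choice. Where every library had at least 10 counts of a gene, 1175 of 2564 genes (45.8%) varied by more than counting noise (edgeR's intercept-only Poisson fit, Benjamini-Hochberg adjusted p under 0.05). This share rests largely on replicate 2: without it 263 of 2784 genes were called (9.45%), against 28.9% without replicate 1 and 34.3% without replicate 3. MFSD11, SRSF2, GNRHR2, COX20 and HNRNPU passed the count filter and all 5 were called (3 of 5 without replicate 2), while RBM8A, CBX3 and HNRNPA2B1 did not pass it. Calls were more frequent where counts were high: 110 of 124 genes averaging 1000 CPM or more were called (88.7%), against 343 of 1206 with a mean under 100 CPM (28.4%). MFSD11, GNRHR2 and COX20 belong to the first of these classes and SRSF2 and HNRNPU to the second.

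MFSD11 and COX20 moved in opposite directions in replicate 2. MFSD11 had 1886 CPM in replicate 2, against 4131 CPM in replicate 1 and 3543 CPM in replicate 3 (edgeR, adjusted p = 1.97e-83). COX20 had 7860 CPM in replicate 2, against 5223 CPM in replicate 1 and 5952 CPM in replicate 3 (edgeR, adjusted p = 1.11e-51). The log2 ratio of replicate 2 to the mean of the others was -1.02 for MFSD11 and 0.49 for COX20. Both calls held without any 1 library. Among the 1175 genes called, replicate 2 was the highest in 579 and the lowest in 435, so both directions occurred widely.

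The other calls rested on replicate 3. SRSF2 had 122 CPM in replicate 3, against 66.3 CPM in replicate 1 and 55.3 CPM in replicate 2 (edgeR, adjusted p = 0.0158). HNRNPU had 135 CPM in replicate 3, against 66.3 CPM in replicate 1 and 41.5 CPM in replicate 2 (edgeR, adjusted p = 0.000245). GNRHR2 had 1625 CPM in replicate 3, 1415 CPM in replicate 1 and 1325 CPM in replicate 2 (edgeR, adjusted p = 0.0114), a ratio of highest to lowest of 1.23. Without replicate 3 none of these was called, with adjusted p of 0.796 for SRSF2, 0.313 for HNRNPU and 0.995 for GNRHR2. Without replicate 2 the adjusted p was 0.0984 for SRSF2 and 0.135 for GNRHR2, while HNRNPU was still called at 0.0372. Replicate 3 is also the library with the fewest gene-assigned counts. The coefficient of variation beyond counting noise was 0.569 for HNRNPU, 0.399 for SRSF2, 0.364 for MFSD11, 0.214 for COX20 and 0.0966 for GNRHR2.

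**Figure D5:**
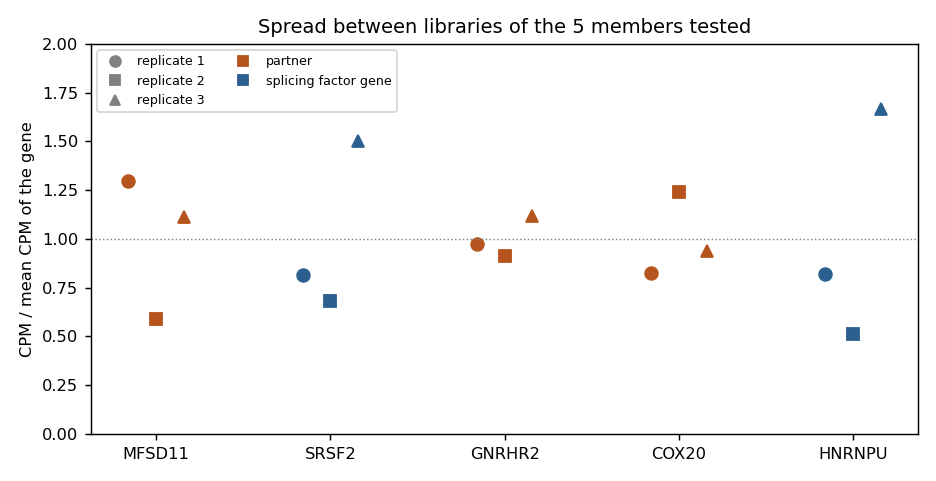
CPM of each library divided by the mean CPM of the gene for the 5 genes tested, with 1 symbol per replicate and a dotted line at the mean. Replicate 2 is lowest for MFSD11 and highest for COX20, and replicate 3 is highest for SRSF2, HNRNPU and GNRHR2.

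The genes with the most similar values over the 3 libraries were found by the Euclidean distance of log2(CPM + 1). MFSD11 was nearest to SMPD4 (distance 0.34), which had 1475, 810 and 951 counts, and to MXD3 (0.44). COX20 was nearest to ENTPD1 (0.29), which had 2609, 2937 and 1877 counts, and to SYNC (0.39). GNRHR2 was nearest to TTI2 (0.08), with 597, 565 and 474 counts, and to LOC100129931 (0.14). SRSF2 was nearest to ERI2 (0.23), with 27, 27 and 40 counts, and to ZSCAN30 (0.28), and HNRNPU to PRR7-AS1 (0.40) and MRPL20 (0.42). This measure combines the level with the pattern over the libraries.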

How the data were processed

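Gene-level counts of 3 HEK293 libraries were used. The authors deposited raw whole-number counts per gene symbol, 1 table per replicate. Per the submitters' processing notes, Trimmomatic, HTSeq 0.11.2 and TopHat2, listed with version 2.2.5, were used with hg38. For the annotation, strand option and read layout, the sources used here give no statement. The 5 summary lines (no feature, 91.2% of records on average; not unique, 6.77%; ambiguous, 0.0184%; the other lines were at 0) entered neither library sizes nor tests.

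CPM used TMM effective library sizes (edgeR 4.0.16, R 4.3.3). Variation between libraries was tested over all genes having 10 or more counts in each of the 3 libraries by an intercept-only fit at a dispersion of 0, its deviance against a chi-square distribution, with Benjamini and Hochberg's adjustment. The test was also run on simulated Poisson counts. These carry the noise that the fit assumes, so that run cannot show how the test behaves with other noise. With 1 condition there was no contrast for a quasi-likelihood test. Gene names were matched to GENCODE release 29, 23851 by name and 710 by a RefSeq synonym (92.7% of 26485), and merged exons were compared between strands. Alternatives included DESeq2 1.42.0 size factors. Python 3.11.15 with pandas 2.3.3, scipy 1.17.1 and matplotlib 3.10.9 was used.

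Genes named were the 8 members, the 3 highest and up to 3 without a count of each list, the partners of splicing list genes where the partner itself reached 10 counts per library, overlapping and adjacent genes, and the 2 nearest in level of each tested member. HNRNPU-AS1, C14orf119, GUCD1, PCBP1 and the splicing genes opposite a named partner were named after their values were seen, and some adjacent genes with few counts are not named. Members and lists were chosen with earlier results of these data known, and the comparison with RefSeq extents was added after the counts were seen. MFSD4A, MFSD13A, MFSD14A and MFSD14B were not analysed here. The shared sequence of GNRHR2 and RBM8A and 1 adjacent gene are not reported here.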

Additional observations from a re-analysis of the deposited data

How the results depend on the processing

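No paired analysis was possible because the 3 libraries form 1 group. Without a count filter 2914 of 14482 genes varied between libraries, against 1175 of 2564 with it, and all 5 calls among the pairs remained. With 1 replicate left out the number ranged from 263 (without replicate 2, of 2784) to 1093 (without replicate 3, of 3186), and the number of calls among the 5 genes ranged from 2 (without replicate 3: MFSD11 and COX20) to 5 (without replicate 1). Per kilobase of merged exon the log2 ratio was 4.15 for MFSD11 to SRSF2, 7.59 for GNRHR2 to RBM8A and 8.63 for COX20 to HNRNPU, and it was reversed for CBX3 to HNRNPA2B1, at 0.20. This follows from the exon lengths, which depend on the annotation. Of 78 alternatives in all, 65 kept the direction and the call. Among them were the other scalings, the Pearson statistic, the other priors and a minimum overlap of 100 bases. At that overlap the partner was higher in 9 of 11 splicing pairs, and per kilobase in 8 of 11. In the main setting the share over all pairs in both orders was 46.7%, and none is given for these alternatives. The 11 include the 3 pairs chosen with their counts known and others whose order the count filter largely set. Nothing is read from these counts. Tested without the count filter, RBM8A, CBX3 and HNRNPA2B1, with counts of 3 to 12, were not called (edgeR, adjusted p of 0.712, 0.358 and 0.627). The annotation and the strand option of the counting limit every level given.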
